A study of Oryza sativa Japonica Group with 16 samples.

Results

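The comparison of *ta2* crown root (CR) initials with wild type CR initials is described here through its table of differential CHH methylation. All 363662 rows of that table were taken, of 2093419 rows in the 4 tables of the series, and no row was chosen by its value. *ta2* is a point mutant of *DNG702*, a gene for a DNA glycosylase that removes methylated cytosines, in the Zhonghua 11 (ZH11) background of *japonica* rice, and the mutation leads to alternative splicing of the transcript rather than to a deletion. The *ta2* CR group had 2 biological replicates of stage 1 initials, which are newly formed cell clusters without obvious differentiation, cut out by laser microdissection and measured by bisulfite sequencing (BS-seq). Its counterpart was wild type ZH11 CR at the same stage, from libraries of another series. The 3 other tables, used only for values side by side, compare *ta2* lateral root (LR) initials and CR and LR initials of *OxDRM2*, lines that overexpress the DNA methyltransferase DRM2 from a ubiquitin promoter, each with the wild type of its root type.

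Plant DNA carries methyl groups on cytosines in several sequence contexts. In the CHH context a cytosine is followed by bases other than G (H stands for any base but G). CHH methylation is not copied from the other strand when DNA replicates, so it has to be set anew, in large part by DRM2 guided by small RNAs in the RNA-directed DNA methylation pathway and in part by chromomethylases. Glycosylases of the DNG family work in the other direction: they cut out methylated cytosine, which is then replaced by an unmethylated one. In rice, CHH methylation lies mostly on transposons, many of them short ones beside genes, while the sequence around centromeres is rich in long repeats and poor in genes.

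Each row gives, for a window of 1000 bp, how far the percentage of methylated CHH cytosines differed between genotypes, in percentage points. Windows were placed in steps of 100 bp and overlap, up to 10 of them over a base pair, and are not independent of each other. Positive values were taken to mean more methylation in *ta2*, which the table itself does not state, and such a window is called a gain (hyper), a negative one a loss (hypo). The rows had differences of 10 points or more and q-values (p-values adjusted for many tests) below 0.01, and other windows were not analysed here. The rows hold no value per replicate and no number of sequenced cytosines, so the depth behind a window is unknown and no difference carries a replicate error or an interval. The rows end on chromosome 8 at position 23670800, and the other 4.77 Mb of chromosome 8 and the whole of chromosome 9 were not analysed here. All shares below are over the 345.4 Mb of the 11 chromosomes that remain. Because the *ta2* and wild type libraries belong to different series, and the sample labels name more than one BS-seq library kit, genotype and library preparation cannot be told apart. Since the tables are lists of calls, the results are descriptions of these lists, with no test.

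Crown root initials of *ta2* gained CHH methylation far more often than they lost it, and the gains were also larger. Gains numbered 359154 windows and losses 4508. Counted over all 3454187 window positions of the covered sequence, whether or not they were tested, these are 10.4% and 0.131% of positions. In *ta2* LR, 9.67% of positions were gains and 0.13% losses. *OxDRM2* CR had gains at 23.6% and losses at 0.0442% of positions, and *OxDRM2* LR had 12.6% and 0.141%. Losses in *ta2* CR were therefore about as frequent as in *ta2* LR and more frequent than in *OxDRM2* CR, where gains covered more than double the positions. *ta2* CR and *OxDRM2* CR share their wild type libraries.

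Sizes of gains and losses fell off at different rates. The middle gain was 20.2 points, and 5% of gains lay above 56.3 points. Of the gains, 50.5% were above 20 points, 26.9% above 30 points, 7.53% above 50 points and 0.846% above 80 points. Losses were mostly close to the listing limit, with a median of 13.4 points in size, and 12.1% of them exceeded 20 points. Only 62 loss windows exceeded 30 points and 1 exceeded 50 points. From 10 to 15 points there were 105695 gains and 2881 losses, and from 40 to 45 points 14279 gains and 4 losses. Above 90 points, 971 gain windows were still listed. In such a window nearly all sequenced CHH cytosines would have to be methylated in *ta2* and nearly none in the wild type. The number of cytosines sequenced there is unknown, so a change over the whole 1000 bp is not shown.

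**Figure D1:**
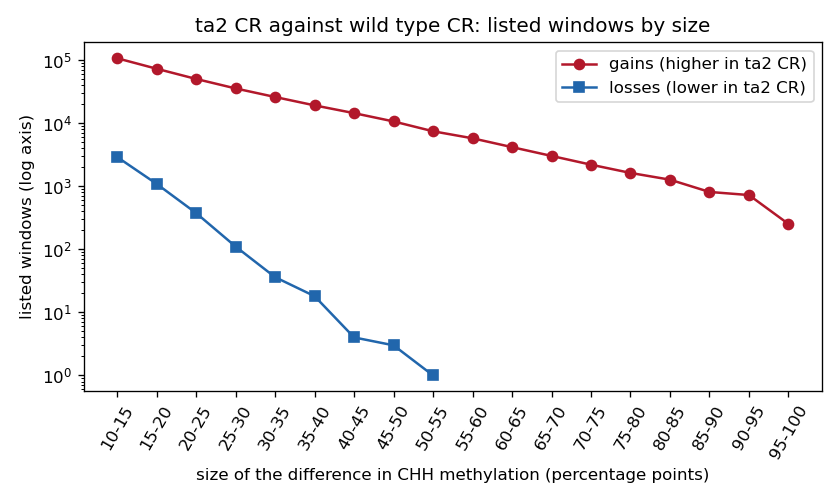
Number of listed windows of *ta2* CR against wild type CR (vertical log axis) by the size of the difference in classes of 5 percentage points (horizontal axis), with gains as red circles and losses as blue squares. Gains decline slowly to 251 windows at 95 to 100 points, whereas losses fall to 1 window at 50 to 55 points.

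Windows that overlapped or touched were merged, which gave 41975 gain regions and 1831 loss regions. Gain regions spanned 79.4 Mb, or 23.0% of the covered sequence, and loss regions 2.15 Mb, or 0.623%. These spans count whole windows and therefore include sequence around the cytosines that changed. Of the gain regions, 72.3% held every window position between their ends, and of the loss regions 89.8%.

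The lengths of gain regions had a sharp peak at 1900 bp. This was the exact length of 8691 regions, 20.7% of all, against 1792 regions of 1800 bp and 3151 regions of 2000 bp. The second peak was at the smallest possible length, 1000 bp or a single window, with 5918 regions. A stretch of changed cytosines that fits inside a single step of 100 bp is seen by 10 successive windows, which together span 1900 bp. A change confined to about 100 bp could thus leave a region of 1900 bp, but only if each window passed the limit of 10 points. The percentage of a window covers all its read CHH cytosines, so the stretch would have to hold a large enough share of them. That share is unknown and was not tested. Other arrangements of changed cytosines can give the same length. All windows of a region up to 1900 bp long share at least 100 bp, and 67.4% of gain regions were no longer than that. The complete footprint of 10 windows over 1900 bp was found in 7219 gain regions, 17.2% of all. Along these 10 windows the median difference hardly varied, between 22.4 and 23.2 points, while within a region the highest and lowest window differed by 12.2 points in the median.

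Longer gain regions reached higher peaks. The median peak was 12.9 points in regions of 1 window, 18.9 points at 1100 to 1800 bp, 31.1 points at 1900 bp, 37.1 points at 2600 to 4000 bp and 44.3 points at 4100 to 8000 bp. A region with more windows has more chances of a high one, and the median of the region means was nearly level beyond 1900 bp, at 22.1 points at 1900 bp and 23.1 points at 4100 to 8000 bp. Only 1129 gain regions, 2.69%, were longer than 4000 bp and 12 were longer than 8000 bp. Regions with a peak above 80 points numbered 737, with a median length of 2000 bp and a summed span of 1.76 Mb. Of these, 38.0% were no longer than 1900 bp, against 67.4% of all gain regions, so regions with the strongest peaks were longer than gain regions in general.

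Loss regions were shorter still and showed no peak at 1900 bp. Single windows made up 45.4% of them, the median length was 1100 bp, and 31 of 1831 had a length of 1900 bp. The peak of a loss region had a median of -12.0 points for single windows and -18.1 points at 1900 bp. Most losses thus passed the listing limits in only 1 or a few of the windows over a place.

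**Figure D2:**
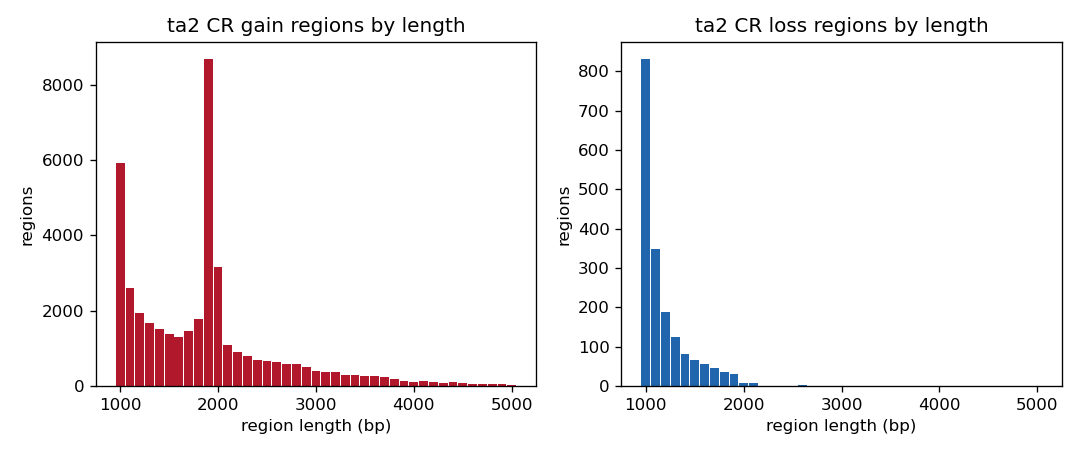
Number of merged regions (vertical axis) by region length in bp, in steps of 100 bp up to 5000 bp, for gain regions (left) and loss regions (right) of *ta2* CR. Gain regions peak at 1900 bp with 8691 regions, while loss regions decline from 832 regions at 1000 bp.

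The longest gain regions were mosaics of moderate gains. Positions here are those of the rice genome build RGAP version 7.0. On chromosome 5, the longest region ran from 4671201 to 4681700, 10500 bp with 56 windows, a mean of 25.3 points and a peak of 51.0 points. The next, of 10400 bp, lay on chromosome 1 from 7644001 to 7654400, with 79 windows and a mean of 18.5 points. On chromosome 2, a region of 9600 bp from 21832801 to 21842400 had the highest mean of the 5 longest, 29.3 points. In *ta2* LR these regions also held gains, with 50, 67 and 40 gain windows and means of 26.3, 22.8 and 29.6 points. So they did in *OxDRM2* CR, with 76, 88 and 56 gain windows and means of 22.7, 24.7 and 25.9 points. *OxDRM2* LR had 48, 78 and 48 gain windows with means of 25.1, 24.4 and 38.4 points. The longest loss regions were 2600 bp long, both on chromosome 1, from 4945901 to 4948500 with a mean of -16.3 points over 15 windows, and from 27621101 to 27623700 with a mean of -17.4 points over 10 windows.

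Gain regions were spread over the genome at short spacing. The stretch between neighbouring gain regions had a median of 4000 bp and a mean of 6336 bp, and 80.5% of these stretches were no longer than 10000 bp. Their SD was 8106 bp, 1.28 times the mean. Neighbours were no more than 500 bp apart in 9.85% of cases. Of 3449 bins of 100 kb, 3437 held at least 1 gain window, with 104 gain windows on average. The densest bin, on chromosome 12 from 3700001 to 3800000, held 261 gain windows, and the next, on chromosome 6 from 21300001 to 21400000, held 260. Loss regions were sparse, with a median of 106700 bp between neighbours.

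Counts were also taken in bins of 1 Mb. Over 340 whole bins of 1 Mb, gain windows numbered 1041 ± 194 per bin (SD over bins), with a lowest value of 224 and a highest of 1473. Windows above 80 points numbered 8.82 ± 14.4 per bin, and losses had a median of 11 with a range of 0 to 48. The spreads of such small counts cannot be set against that of all gains, since small counts vary more by counting alone and the windows above 80 points merge into only 739 regions. The 10 bins with most windows above 80 points, 2.94% of the bins, held 22.7% of those windows, and 74 bins held none. For all gains, the 10 highest bins held 3.91%.

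The 5 richest bins lay on chromosomes 3, 6 and 8 and the 5 poorest on chromosomes 4, 11 and 12. The highest, on chromosome 6 from 21 to 22 Mb, had 1473 gain windows, followed by 1418 on chromosome 3 from 24 to 25 Mb and 1413 on chromosome 6 from 26 to 27 Mb. The poorest bin was chromosome 4 from 15 to 16 Mb with 224 gain windows. It was followed by 263 on chromosome 11 from 28 to 29 Mb, 362 on chromosome 12 from 20 to 21 Mb, and 371 and 390 on chromosome 11 from 12 to 13 Mb and from 27 to 28 Mb. The longest stretch without any gain in *ta2* CR also lay on chromosome 4, from 14827101 to 15135700, a length of 308600 bp, where *ta2* LR had 10 gain windows, *OxDRM2* CR had 24 and *OxDRM2* LR had 14. A nearby stretch of 188300 bp, from 15151701 to 15340000, had 0 gain windows in *ta2* CR and in both LR tables and 9 in *OxDRM2* CR. Whether sequence there was read in any library is not shown by the tables.

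By chromosome, gain windows took from 8.91% of the positions on chromosome 11 to 11.1% on chromosome 10, and the median gain ranged from 19.8 points on chromosome 5 to 21.1 points on chromosome 6. The median gain region was 1900 bp long on each of the 11 chromosomes. Losses varied more, from 8.14 windows per Mb on chromosome 12 to 19.6 on chromosome 1 and 17.3 on chromosome 3.

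Losses were sparse around centromeres, while gains were nearly level along the chromosomes. Centromere positions, which the tables do not give, were set from textbook knowledge rounded to the whole Mb. Within 2 Mb of the centromeres there were 972 gain windows per Mb, against 1049.7 per Mb elsewhere, a ratio of 0.926 that was below 1 on 7 of 11 chromosomes. For losses the densities were 4.14 per Mb near centromeres and 14.4 per Mb elsewhere, a ratio of 0.288 that was below 1 on 11 of 11 chromosomes and ranged from 0.164 on chromosome 8 to 0.447 on chromosome 6. For losses of *ta2* LR this ratio was 0.706, for those of *OxDRM2* CR 0.475 and for those of *OxDRM2* LR 0.748, and differences between these ratios were not tested. Counting only positions that were listed in at least 1 of the 4 tables left the ratio for losses at 0.303 and that for gains at 0.973. Those positions include the counted windows themselves, so these ratios do not correct for sequence that could not be read. The number of cytosines that could be read per window near centromeres is not in the table, and its part in these ratios was not tested.

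Along the arms, divided into 5 equal parts from the centromere (1) to the end (5), gains stood at 1019, 1060.3, 1087, 1074 and 956 windows per Mb. Losses stood at 5.60, 9.77, 17.1, 17.3 and 15.7 windows per Mb, and part 1 was lower than part 5 on 11 of 11 chromosomes. For every 1000 gain windows there were 5.49 loss windows in part 1 and 16.5 in part 5. The distal 2 Mb of the chromosomes held 930.3 gain windows per Mb, against 1054.9 in the rest, a ratio of 0.882. The ratio was 0.995 over positions listed in at least 1 table. Since these positions include the gains themselves, it cannot show how evenly gains lay over readable sequence. Losses at the ends had a ratio of 1.17 with 2 Mb and of 0.915 with 1 Mb, so they had no stable direction there.

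On some chromosomes the arms differed in losses, in either direction. The short arm of chromosome 4, known in rice for its dense heterochromatin, had 3.60 loss windows per Mb, against 13.1 per Mb on its long arm, while gains were 895 and 1016 per Mb. The short arm of chromosome 10 had 40 loss and 8347 gain windows, and the long arm, 15.2 Mb in length, 184 loss and 17493 gain windows. On chromosome 11 the arm before the centromere had the higher density, 11.9 loss windows per Mb against 6.88 after it. The arms of chromosome 1, with 19.4 and 19.8 per Mb, and of chromosome 3, with 17.7 and 16.9 per Mb, were nearly level. The bins with most losses were chromosome 2 from 34 to 35 Mb with 48 loss windows and chromosome 3 from 30 to 31 Mb with 45.

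**Figure D3:**
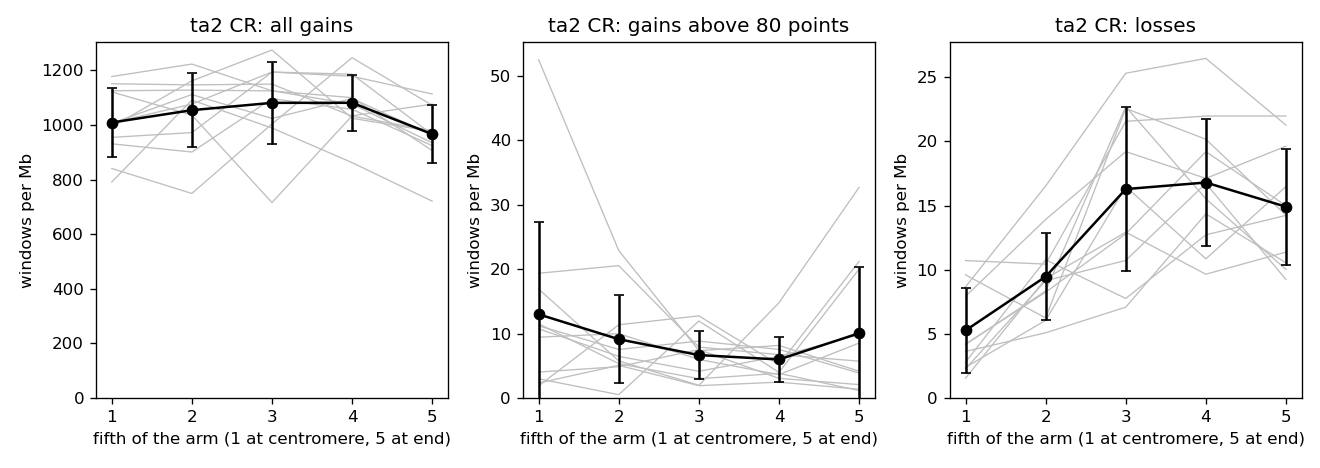
Windows per Mb of *ta2* CR (vertical axis) by part of the chromosome arm, from 1 at the centromere to 5 at the end, for all gains (left), gains above 80 points (middle) and losses (right). Grey lines are the 11 chromosomes and black points their mean with SD; losses average 5.27 per Mb in part 1 and 14.9 per Mb in part 5, while the high grey line at the centromere in the middle panel is chromosome 6 with 52.5 per Mb.

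The strongest gains, above 80 points, differed in number between chromosomes. Of the 3038 windows, 594 lay on chromosome 6 and 512 on chromosome 4, which are 19.6% and 16.9% of them on 9.05% and 10.3% of the covered sequence. Chromosome 3, with 10.5% of the sequence, had 96 of them, or 3.16%. A single bin, chromosome 4 from 1 to 2 Mb, held 162, and the median of all its 663 gain windows was 41.1 points, the highest median of the whole bins. The next were the bin from 2 to 3 Mb of chromosome 4 and the bin from 15 to 16 Mb of chromosome 6, with 72 each.

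Taking in the neighbours of these bins, 3 stretches stood out and were chosen because of their values. They were the first 3 Mb of chromosome 4 with 267 windows above 80 points, chromosome 6 from 11 to 19 Mb with 402, and chromosome 11 from 27 to 29 Mb with 102. Together they made up 3.76% of the covered sequence and 25.4% of the windows above 80 points in *ta2* CR. Of the windows above 80 points, *ta2* LR had 19.5% in these stretches, *OxDRM2* CR had 34.8% and *OxDRM2* LR had 21.6%. All 4 lists thus had more there than the share of sequence. The stretches were chosen on *ta2* CR values, and *OxDRM2* CR has the same wild type libraries, so the lists are not independent. Gains of any size were not dense in them: *ta2* CR had 2387 gain windows in the 3 Mb of chromosome 4, 7260 in the 8 Mb of chromosome 6 and 653 in the 2 Mb of chromosome 11, where their median was 31.1 points. What these stretches share in sequence was not tested.

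The stretch on chromosome 6 includes its centromere. Over all chromosomes the strongest gains were denser near centromeres, with 12.8 windows per Mb within 2 Mb and 8.22 elsewhere, a ratio of 1.55. Without chromosome 6 the ratio was 1.17. At the chromosome ends the ratio was 1.46, and 0.983 without chromosome 4. Leaving out other chromosomes moved the ratios too. Near centromeres the ratio was 1.55 without chromosome 4 and 1.76 without chromosome 11. At the ends it was 1.87 without chromosome 6 and 1.25 without chromosome 11. Both ratios thus depended on single chromosomes, in either direction.

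**Figure D4:**
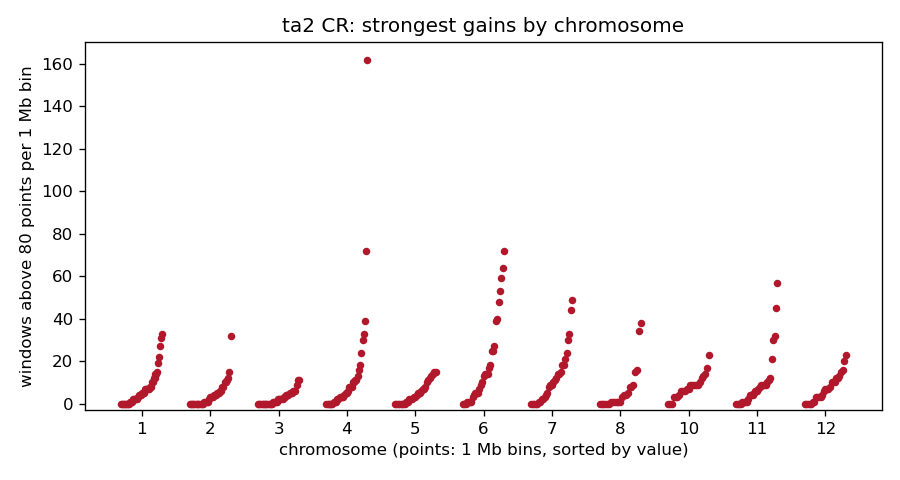
Windows of *ta2* CR above 80 points (vertical axis) in each whole bin of 1 Mb, with the bins of a chromosome side by side and sorted by value. Most bins lie near the median of 5, and the highest are 162 on chromosome 4 and 72 on chromosomes 4 and 6.

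The 10 strongest gain regions had peaks from 97.6 to 99.4 points, and 4 of them lay in the first 3 Mb of chromosome 4. The highest peak, 99.4 points, was on chromosome 6 from 15082501 to 15084500, with a mean of 94.0 points over 7 windows. Its mean was 94.7 points in *ta2* LR, and *OxDRM2* had 92.7 points in CR and 94.0 points in LR, so the region was near the maximum in every comparison.

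The gain on chromosome 10 from 1806701 to 1808600 was listed in *ta2* CR alone, with 9 windows between 98.9 and 99.4 points that share the 100 bp from 1807601 to 1807700. No window of that region was listed in the 3 other tables. A gain on chromosome 6 from 15235901 to 15237900, with a mean of 89.8 points over 11 windows, was likewise absent from the other lists. Absence from a list can mean a small difference or too few reads, which the tables do not separate.

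On chromosome 4, the region from 853401 to 855300 had a mean of 98.3 points over 10 windows, which share the 100 bp from 854301 to 854400. It was at 95.2 points in *OxDRM2* CR, which uses the same wild type libraries, and not listed in *ta2* LR, while *OxDRM2* LR listed 1 window at 77.6 points. The region from 1293601 to 1296500 had a mean of 89.7 points over 20 windows in *ta2* CR, against 85.5 points in *OxDRM2* CR. *OxDRM2* LR listed 10 windows of it with a mean of 83.8 points, and *ta2* LR none. At the very start of chromosome 4, from 1101 to 2900, the mean was 92.2 points in *ta2* CR and 93.5 points in *ta2* LR. *OxDRM2* had 91.7 points there in CR and 91.6 points in LR, so the gain was strong in every comparison.

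Other strong gains were peaks inside weaker regions. On chromosome 1 from 16234101 to 16236000, windows ranged from 18.8 to 98.2 points in *ta2* CR with a mean of 69.3, while *ta2* LR averaged 92.1 points and *OxDRM2* CR 33.2 points. On chromosome 5 from 17896601 to 17898700, the peak of 98.3 points stood in a region with a mean of 38.9 points. The region on chromosome 6 from 18628001 to 18629400 peaked at 98.8 points in *ta2* CR and at 57.4 points in *OxDRM2* CR, and neither LR table listed it.

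The strongest loss was a single window on chromosome 11 from 22065801 to 22066800 at -53.4 points, listed at -39.8 points in *OxDRM2* CR and in neither LR table. The other 9 of the 10 strongest loss regions had peaks from -49.9 to -39.6 points, and 4 of the 10 regions consisted of 1 window. Only a few strong losses extended over many windows. On chromosome 1, the region from 1744001 to 1745600 had a mean of -34.9 points over 7 windows. There, *ta2* LR listed 2 gain windows with a mean of 10.9 points, and *OxDRM2* CR listed none. On chromosome 6 from 28398601 to 28400500, 10 windows had a mean of -25.2 points in *ta2* CR. All 3 other lists had gains in the same place. *ta2* LR listed 8 gain windows with a mean of 39.3 points, *OxDRM2* CR 3 with 18.1 points and *OxDRM2* LR 6 with 28.2 points.

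At the peak windows of the 10 strongest gain regions, *ta2* LR listed a gain at 2, *OxDRM2* CR at 8 and *OxDRM2* LR at 3. At those of the 10 strongest loss regions, *OxDRM2* CR listed a loss at 5 and neither LR table listed any. These peak windows thus recurred more often in *OxDRM2* CR, with the same root type and wild type libraries, than in *ta2* LR. The list of *OxDRM2* CR was also the longer one for gains, at 23.6% of all positions, against 9.67% in *ta2* LR. For losses it was the shorter one, at 0.0442% of all positions, against 0.13% in *ta2* LR. The named peaks do not stand for all strong gains. Of all 3038 windows above 80 points, 68.1% were gains in *ta2* LR and 31.9% were not listed there. What genotype, root type and shared wild type each add to these recurrences cannot be told apart.

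**Figure D5:**
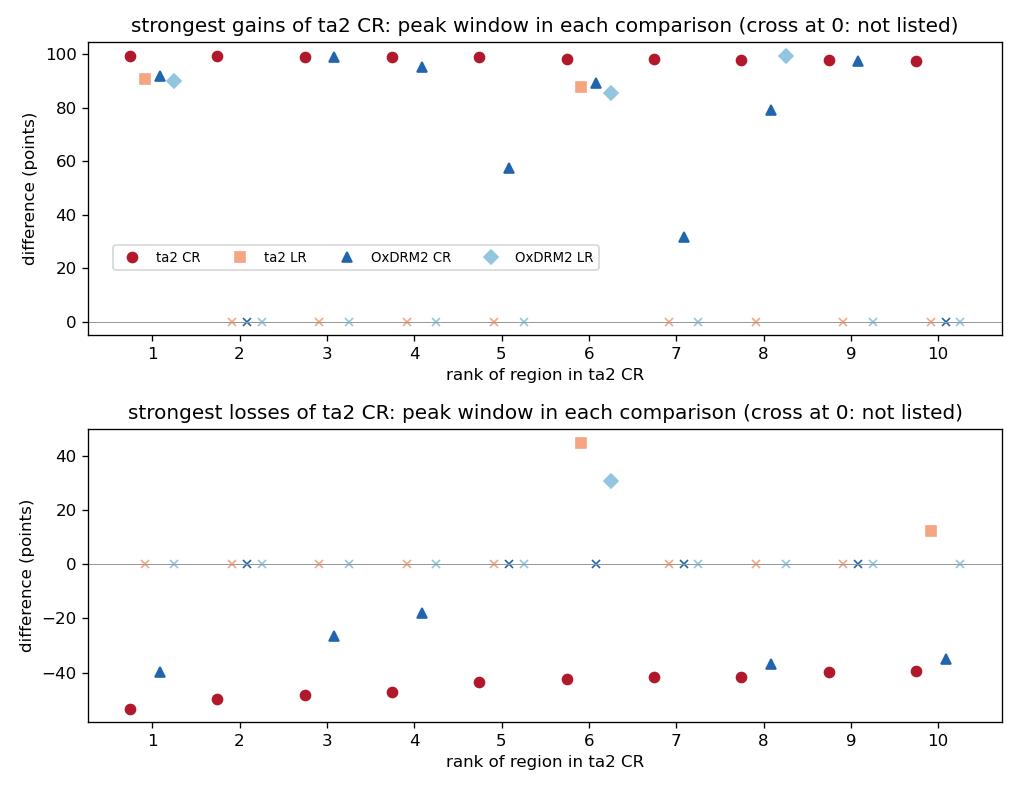
Difference in CHH methylation in percentage points (vertical axis) at the peak window of the 10 strongest gain regions (top) and the 10 strongest loss regions (bottom) of *ta2* CR, in rank order, with circles for *ta2* CR, squares for *ta2* LR, triangles for *OxDRM2* CR and diamonds for *OxDRM2* LR; crosses at 0 mark windows that a table did not list. All gain peaks of *ta2* CR lie between 97.6 and 99.4 points. The loss window at rank 6 is a gain of 44.8 points in *ta2* LR and of 30.6 points in *OxDRM2* LR, and that at rank 10 a gain of 12.3 points in *ta2* LR.

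The root types of *ta2* were each set against wild type libraries of their own. Of the gain windows, 185486 were gains in both, 51.6% of those of *ta2* CR and 55.5% of those of *ta2* LR. Above 50 points in both, 14084 windows were shared, 52.1% of those of *ta2* CR and 38.1% of those of *ta2* LR. Of all 3454187 positions, 36920 were above 50 points in *ta2* LR. Of the losses, 80 windows were shared, 1.77% of those of *ta2* CR and 1.78% of those of *ta2* LR, while 331 loss windows of *ta2* CR, 7.34%, were gains in *ta2* LR. Over all positions of the covered sequence, 9.67% were gains and 0.13% losses in *ta2* LR. The shares of all gains and of losses held in common were above these levels, while the 7.34% of losses that were gains in *ta2* LR was below 9.67%. The level of 9.67% is for gains of any size and is no base for windows above 50 points. These levels count positions whether or not they were tested, whereas a shared window had to be readable in both comparisons. The size of the excess therefore cannot be read from them. Such sharing was not particular to *ta2*. *OxDRM2* LR, also set against LR wild type libraries, listed 58.5% of the *ta2* CR gains as gains, with gains at 12.6% of all positions. Of the *ta2* CR losses, 1.60% were losses and 12.8% were gains in *OxDRM2* LR, with losses at 0.141% of all positions. The same limit on readable positions holds there. Shares held in common with *OxDRM2* CR are not given, since that comparison rests on the same wild type libraries as *ta2* CR.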

How the data were processed

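Using BS-Seeker2 (2.1.8), the authors aligned BS-seq reads against RGAP version 7.0, keeping unique, non-duplicate ones. The authors' deposited tables hold, per window, a p-value, a q-value and a methylation difference as percent (in points), in the column order of methylKit, which the submitters' processing notes name. The methods describe windows of 50 bp instead. Window width, the step of 100 bp and the listing limits were checked on the rows. As no replicate is given, the p-values carry no visible replicate error. The direction of subtraction is not written in the file, and the *ta2* CR rows possibly stop early.

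Windows were merged into regions, and counted in bins by their start and in zones and arms by their midpoint, with pandas 2.3.3 and numpy 2.4.6 under Python 3.11.15, and drawn with matplotlib 3.10.9. Merging was tested on simulated windows. Members and lists were chosen with earlier results of these data known; the regions to be named were the 10 strongest gains and losses, the 5 longest gains and the extreme 1 Mb bins. The 2 longest losses, the arm parts, the 3 stretches and the limits of 50 and 80 points were added after values were seen. No genome or annotation of this build was used, so genes, promoters and sequences are not analysed here. RNA-seq samples were not analysed here.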

Additional observations from a re-analysis of the deposited data

How the results depend on the processing

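With a difference above 20 points there were 181366 gain and 544 loss windows and 27560 gain regions spanning 13.1% of the covered sequence, and above 30 points 96540 gain and 62 loss windows. Windows that do not overlap numbered 60027 for gains, 1850 for losses and 772 for gains above 80 points. Closing gaps up to 500 bp moved the span of gain regions to 23.3%. These changes follow from counting fewer or wider units. The ratio of gains near centromeres to the rest was 0.870 within 1 Mb, 0.965 within 3 Mb, 0.975 above 30 points and 0.973 over positions listed in at least 1 table, and that of losses 0.283, 0.352, 0.289 (above 20 points) and 0.303. At the chromosome ends, gains had a ratio of 0.870 in the distal 1 Mb, 0.907 above 30 points and 0.995 over listed positions. Losses there had 1.39 above 20 points and 1.32 over listed positions, and reversed to 0.915 in the distal 1 Mb; the cause was not tested. The 6 other settings, among them p under 1e-06 and regions of at least 3 windows, kept counts within 1.5 times or the median length at 1900 bp. Listed positions, the ratios of losses and the limit of 80 points were added after seeing the data. Ratios over listed positions have the counted windows in their own base and are no correction for readable sequence. No paired analysis was possible because each table holds a comparison and no values per replicate, and leaving out a replicate was not possible for the same reason. The share of genes with a gain in the promoter was not run, since no annotation of this build was used. Differences under 10 points, and the depth of windows, are outside what these rows show.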

Other observations

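Of the 4508 loss windows of *ta2* CR, 26.8% overlapped a gain region and 55.4% lay within 1000 bp of one, against 25.3% and 46.3% of the 3095033 window positions that were no gain themselves. It was chosen with the values known, and no test was run on it.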
